A study of Gallus gallus with 12 samples.

Results

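The comparison described here sets the uterus against the magnum of Lohmann layers, a commercial egg-laying chicken, at 120 days of age. RNA was sequenced from 12 oviduct libraries in all, and the comparison rests on 6 of them, chosen by the segment and age in their titles: 3 of uterus at 120 days and 3 of magnum at 120 days. The 3 uterus and 3 magnum libraries at 300 days enter where the spread is estimated or where the laying age is set beside the earlier one. Per the series' title, the earlier age is before lay and the later one in lay, and the study's question was what sets the segments apart in function and defence. All groups are titled as Lohmann layers, with no treatment named. The labels do not say whether a library holds 1 hen or several, or whether 2 libraries came from 1 hen.

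The oviduct of the hen is a tube in which each segment adds a part of the egg. The magnum carries tubular glands that secrete the egg white proteins, and the uterus, also called the shell gland, moves calcium and carbonate into its lumen and deposits the shell and its matrix proteins. Before lay the oviduct is small, and rising ovarian steroids drive the growth of its glands and the onset of secretion.

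The deposited table holds 19820 genes, with counts that had already been brought to a common level, called scaled counts below. It names 18241 of them by a number and 1579 as new-gene loci. It does not pair the identifiers with symbols, and 0 of 19820 matched the reference table of chicken genes, so no gene name, function, position or sequence is given, and the segment labels could not be checked against marker genes of gland, muscle, blood or immune cells. In the RNA of whole tissue, fewer cells of a type and less RNA per cell cannot be told apart. The 6 libraries summed to 14499548 to 25071610 scaled counts, which is not their depth, and 13966 to 14238 genes stood at 10 or more. The 10 most abundant genes held 7.10%, 7.75% and 4.72% of the uterus libraries, against 38.5%, 5.94% and 5.05% of magnum replicates 1 to 3, so that magnum replicate 1 stood apart. The uterus mean was 6.52% ± 1.60 and the magnum mean 16.5% ± 19.0 (SD, n = 3 each, exact permutation test, two-sided, p = 0.8, where the smallest p of 3 against 3 is 0.1). Without magnum replicate 1 the difference, uterus minus magnum, turned from -9.96 to 1.03 percentage points.

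Before lay the uterus exceeded the magnum for 36 genes and lay under it for 56, which is 0.242% and 0.376% of the genes tested, or 0.618% for the 92 together. A gene counts here as called when its Benjamini-Hochberg adjusted p was below 0.05 by limma, fitted to all 12 libraries on the log2(scaled count + 1) scale. Each of the 92 pointed the same way in all 3 same-numbered pairs of libraries, and its uterus and magnum libraries did not overlap. Libraries that did not overlap were in themselves common, at 5.78% of the tested genes for higher, 7.49% for lower and 13.3% for both. With values divided by library totals, which moved the median of all genes to 0.22 (log2), the shares were 7.20% for higher and 2.55% for lower. Which direction had the larger share thus depended on the scaling. At an unadjusted p below 0.05 stood 1432 genes.

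**Figure D1:**
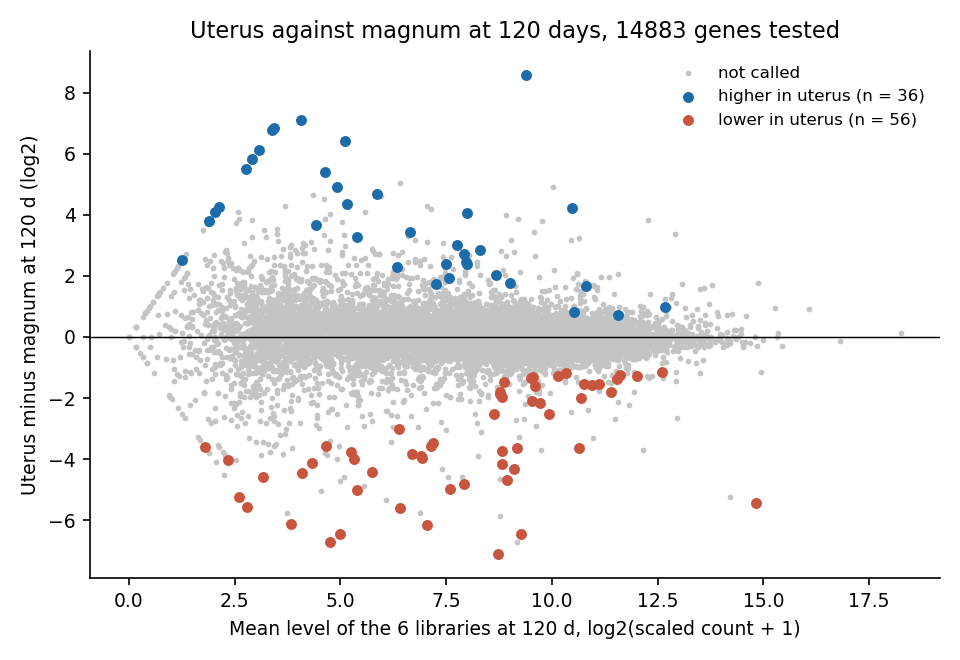
The difference between uterus and magnum at 120 days (log2, vertical axis) is plotted for each tested gene against its mean level in the 6 libraries (log2 of scaled count + 1, horizontal axis). The 36 genes called higher in the uterus (blue) lie mostly at low to middle levels, while the 56 called lower (red) spread over nearly all levels, and most genes (grey) lie near 0.

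The called genes covered a wide range of scaled counts, which are not per gene length and compare 1 gene between segments, not genes with each other. Of the 56 lower genes, 31 had a magnum mean of at least 1000 scaled counts, 17 a mean of 100 to 1000 and 8 a mean under 100, and the median over genes was 110.2 scaled counts in the uterus and 1123 in the magnum. Of the 36 higher genes, 7 reached a uterus mean of at least 1000, 22 lay between 100 and 1000 and 7 lay under 100, with medians of 361.8 in the uterus and 32.7 in the magnum. The median log2 difference was 3.55 for the higher genes, or 2.84 without the 9 that were listed at 0 in all 3 magnum libraries, and -3.62 for the lower genes with or without the 3 listed at 0 in all 3 uterus libraries. The median over all genes tested was -0.007. Among genes not listed at 0 in the lower group, 9 of 27 higher and 20 of 53 lower had a log2 difference of at least 4 in size.

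4 identifiers were taken by a fixed rule, the 2 in each direction with the highest mean among called genes with a log2 difference of at least 1. The first, gene18927, stood at 90244, 2781 and 9050 scaled counts in uterus replicates 1 to 3, against 16, 47 and 48 in magnum replicates 1 to 3. The lowest uterus library was far above the highest magnum library, and the uterus libraries differed widely among themselves, with replicate 1 highest. The log2 difference was 8.59 ± 0.92 (SE, adjusted p = 0.00238). Per length, gene18927 averaged 1614 ± 2217 FPKM in the uterus and 2.09 ± 0.96 FPKM in the magnum (SD, n = 3 each).

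In the uterus gene14964 stood at 13909, 6365 and 2567 scaled counts, against 103, 820 and 411 in the magnum. The groups did not overlap, and pair 1 was again the widest, since its uterus library was the highest and its magnum library the lowest. The log2 difference was 4.22 ± 0.69 (SE, adjusted p = 0.0185). The call of gene14964 was lost in 5 of 24 alternative fits. Over all 12 libraries it was lost with same-numbered libraries as blocks (adjusted p = 0.0590). It was also lost when uterus replicate 1 was left out (0.0798) and when magnum replicate 3 was left out (0.0613). The 6 libraries at 120 days alone gave 0.282, or 0.199 with the block.

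Of the lower genes, gene13123 had the highest values. It stood at 1425, 16258 and 3718 scaled counts in the uterus, against 1296290, 53649 and 100346 in the magnum. Magnum replicate 1 held more than 10 times either other magnum library, and uterus replicate 2 came closest to the magnum. The log2 difference was -5.43 ± 1.06 (SE, adjusted p = 0.0475), and the call of gene13123 was lost in 18 of 24 alternative fits, with an adjusted p of 0.107 for same-numbered libraries as blocks. Leaving out magnum replicate 1 gave a log2 difference of -4.05 and an adjusted p of 0.0502. Of the 12 fits that leave out 1 library, only those without uterus replicate 2 or magnum replicate 2 at 120 days kept gene13123 below 0.05.

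The last of the 4, gene17377, stood at 45, 34 and 28 scaled counts in the uterus, against 90730, 1049 and 1266 in the magnum. Its uterus libraries lay close together at a low level, and the magnum was again highest in replicate 1. The log2 difference of gene17377 was -7.10 ± 1.25 (SE, adjusted p = 0.0269), and it was -5.00 without magnum replicate 1. The call was lost in 13 of 24 alternative fits, among them those without uterus replicate 1, 2 or 3 (adjusted p of 0.0925, 0.0517 and 0.0859) and those without any 1 of the 6 libraries at 300 days (0.0503 to 0.0541).

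**Figure D2:**
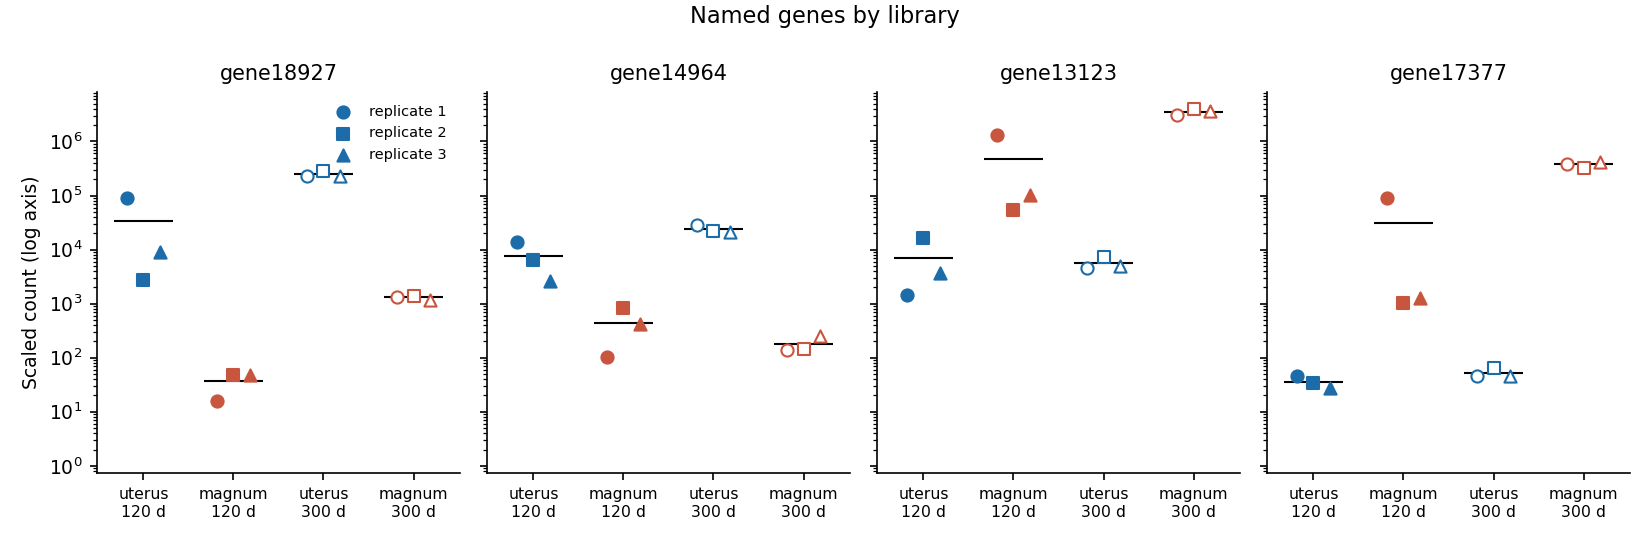
Scaled counts (log axis) of the 4 named genes are shown by library, for uterus and magnum at 120 days (filled symbols) and at 300 days (open symbols), with the mean of each group as a line. At 120 days the replicates of gene18927 in the uterus, gene13123 in both segments and gene17377 in the magnum spread over more than 1 step of 10. The replicates at 300 days lie close together.

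Many of the other lower genes did not share that spread. In 28 of the 56 the highest magnum library was under 2 times the lowest, and in 13 it was at least 5 times the lowest. The lower gene with the smallest adjusted p stood at 133, 164 and 83 scaled counts in the uterus, against 2680, 2410 and 2254 in the magnum. All 3 magnum libraries were close to each other and far above the uterus, and its log2 difference was -4.31 ± 0.37 (SE, adjusted p = 0.000651). This was the 1 lower gene also called when the 6 libraries at 120 days were fitted alone (adjusted p = 0.0245). At a lower level, another gene stood at 9, 11 and 8 in the uterus, against 141, 140 and 136 in the magnum, a log2 difference of -3.77 ± 0.47 (SE, adjusted p = 0.00462). A smaller but equally even difference was that of a gene at 920, 955 and 1184 in the uterus, against 2749, 2965 and 3089 in the magnum, with a log2 difference of -1.53 ± 0.21 (SE, adjusted p = 0.00825). These genes and those described without an identifier below were picked after their values were seen.

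Magnum replicate 1 was the highest magnum library in 39 of the 56 lower genes, and replicates 2 and 3 were highest in 7 and 10. In 18 of the 56 it was at least 2 times both other magnum libraries. One new-gene locus of this kind stood at 12, 11 and 11 in the uterus, against 1692, 207 and 598 in the magnum (log2 difference of -5.59 ± 0.57, SE, adjusted p = 0.00164). The uterus values were nearly equal, and even the lowest magnum library was well above them. Counts of the highest magnum library were not made over all tested genes. The lead of magnum replicate 1 is therefore not shown to be particular to the lower genes.

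The higher genes fell into even and uneven ones as well. The uterus libraries lay within 2 times of each other in 15 of the 36 and spanned at least 5 times in 8. An even case stood at 169, 179 and 183 scaled counts in the uterus, against 35, 37 and 34 in the magnum (log2 difference of 2.29 ± 0.32, SE, adjusted p = 0.00952). A more abundant one stood at 10395, 8439 and 8697 in the uterus, against 4073, 5032 and 4833 in the magnum (log2 difference of 0.98 ± 0.16, SE, adjusted p = 0.0194, or 0.0686 with same-numbered libraries as blocks). Both had uterus libraries within a narrow band above the magnum. Replicate 1 was the highest uterus library in 18 of the 36 higher genes, replicate 2 in 13 and replicate 3 in 5. The highest uterus library was not counted over all tested genes either.

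Some genes were measured in 1 segment and listed at 0 in the other. There were 6 genes at 10 or more in all 3 uterus libraries and at 0 in all 3 magnum libraries, of which 3 were new-gene loci. In the other direction 5 genes, 4 of them new-gene loci, stood at 10 or more in the magnum and at 0 in the uterus. Being chosen for this pattern, they are given as a description, with no count of calls. Their values were low, from 10 to 359 in the uterus genes and from 10 to 85 in the magnum genes, and since the depth is unknown a listed 0 does not exclude a read. Of the 5 magnum genes, 1 was still at 0 in all 3 uterus libraries at 300 days. Of the 6 uterus genes, 5 were still at 0 in all 3 magnum libraries at 300 days, while their uterus values then ran from 0 to 65. The other one, with the smallest adjusted p of the comparison (1.8e-05), stood at 124, 69 and 38 in the uterus and at 0 in the magnum at 120 days, and at 249439, 208999 and 314064 in the uterus against 172, 227 and 201 in the magnum at 300 days. Another called gene listed at 0 in the magnum at 120 days stood at 7, 5 and 3 in the uterus, and at 28559, 19013 and 22495 in the uterus at 300 days against 20, 18 and 21 in the magnum. This gene was under 10 in all 6 libraries at 120 days and was tested only because of its values at 300 days, and with the 6 libraries alone its adjusted p by limma was 0.357. Both thus had far lower values in the uterus before lay than in the laying uterus.

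The calls rest on a spread shared over all 4 groups. The uterus libraries at 300 days had the highest weight, and so the smallest spread, when limma weighted each group by its variance (2.16, against 0.660 to 1.04 in the other groups). With these weights, 21 genes were higher and 32 lower, all of them among the 36 and 56. With same-numbered libraries as blocks 35 were higher (0.235%) and 61 lower (0.41%), and 24 and 37 of the original calls were kept. A fit of the 6 libraries at 120 days alone called 2 higher and 1 lower, with 1058 genes at an unadjusted p below 0.05. All 92 were among the 1058, but they had been chosen on the differences of these same 6 libraries, so this is no separate support. Single libraries moved the counts of higher and lower genes. Leaving out uterus replicate 1 gave 15 and 26, uterus replicate 2 gave 65 and 61, uterus replicate 3 gave 21 and 35, and magnum replicate 3 gave 17 and 17. Leaving out replicate 1 of both segments gave 14 and 29, of which 11 and 21 were among the 36 and 56. Of the libraries at 300 days, leaving out uterus replicate 1 gave 24 and 36, and uterus replicate 2 gave 22 and 38.

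Libraries with the same number resembled each other across the segments at 120 days. Over the tested genes, 52.4% of the variance of the 6 libraries lay between replicate numbers, 27.4% between segments and 20.2% in the remainder. The numbers have 2 degrees of freedom, the segment 1 and the remainder 2, so that equal spread would give 40%, 20% and 40%. Per degree of freedom the shares were 27.4% for the segment, 26.2% for the numbers and 10.1% for the remainder at 120 days, and 69.3%, 8.82% and 6.52% at 300 days. The share of the numbers at 120 days was 50.1% with values divided by library totals and 52.3% with FPKM values. The first principal component of the 6 libraries held 43.1% of the variance and ran between uterus replicate 2, at -84.8, and magnum replicate 1, at 103.6. It did not separate the segments, since uterus replicates 1 and 3 lay at 5.55 and -9.23 and magnum replicates 2 and 3 at -31.2 and 16.1. The second, with 28.3%, put uterus replicates 1 and 3 at 86.9 and 33.9, and uterus replicate 2 at -26.5, against -33.2, -42.5 and -18.6 in the magnum.

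Pairs 2 and 3 showed the same pattern in counts of genes that differ at least 4-fold, and pair 1 did not. These counts are on the log2(scaled count + 1) scale, with 100 or more in the higher library. Uterus and magnum differed for 639 genes in pair 1, 191 in pair 2 and 163 in pair 3. Between uterus libraries the counts were 887 for replicates 1 and 2, 281 for 1 and 3, and 524 for 2 and 3, and between magnum libraries 665, 356 and 61. Within pairs 2 and 3 the segments thus differed for fewer genes than any 2 uterus libraries did, but for more than magnum replicates 2 and 3 did. Uterus against magnum of another number gave 331 to 1328 genes, the most between uterus replicate 2 and magnum replicate 1. Pair 1 lay within this range. Uterus replicate 1 differed from magnum replicate 3 for 458 genes, and uterus replicate 3 from magnum replicate 1 for 610, both fewer than in pair 1. At 300 days the 3 pairs gave 1008, 1270 and 1139 genes.

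**Figure D3:**
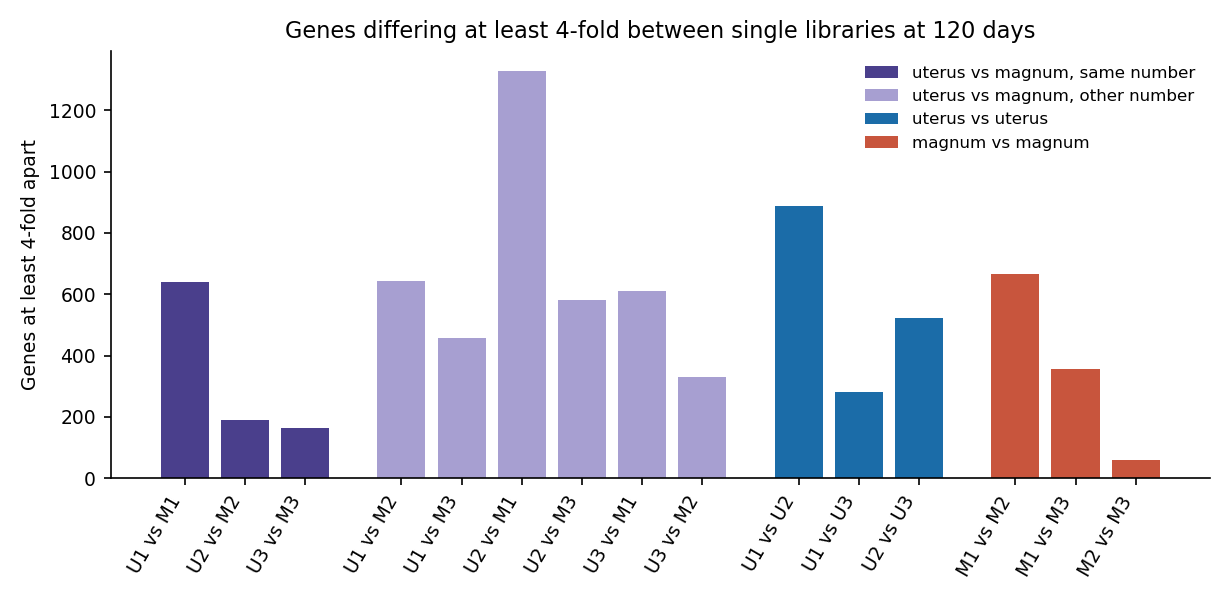
Bars give the number of genes at least 4-fold apart between 2 single libraries at 120 days, with uterus libraries as U1 to U3 and magnum libraries as M1 to M3. The same-numbered pairs 2 and 3 of uterus and magnum (191 and 163 genes) lie below all comparisons of 2 uterus libraries (281 to 887 genes) and above M2 against M3 (61 genes). Pair 1 (639 genes) lies within the range of uterus against magnum of another number.

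Few of these 4-fold differences recurred. Of the genes at least 4-fold higher in the uterus of a pair, 358 were so in 1 pair, 52 in 2 pairs and 16 in all 3. The corresponding counts for lower genes were 301, 46 and 30. The genes found in 1 pair came mostly from pair 1, with 295 higher and 215 lower, against 41 and 63 in pair 2 and 22 and 23 in pair 3. The 16 and 30 that recurred in all pairs make up 0.13% and 0.244% of the 12284 genes that reached 100 in any of the 6 libraries. Of them, 12 of the 16 and 22 of the 30 were also called, where 0.242% and 0.376% of all tested genes were. Both choices used the differences of the same 6 libraries, so this overlap is no separate support.

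The libraries at 300 days show how much of the later difference between the segments was present before lay. In a limma fit of the 6 libraries at 300 days alone, 2213 genes were higher in the uterus and 1808 lower (adjusted p below 0.05), 14.9% and 12.1% of those tested. Of these, 28 (1.27%) and 52 (2.88%) were called in the same direction at 120 days, where 0.242% and 0.376% of all tested genes were. The calls of the 2 ages are not independent, here and in the paragraphs that follow. The spread of the 300-day libraries entered the test at 120 days, and their values entered the filter that chose the genes tested. How much of the excess this makes up was not tested. The median log2 difference of the 2213 at 120 days was 0.71 in pair 1, 0.00 in pair 2 and 0.28 in pair 3, where it was 1.74 at 300 days. For the 1808 it was -0.71, -0.17 and -0.18 in the 3 pairs, and -1.26 at 300 days. The median over all genes tested lay within 0.015 of 0 in each pair at 120 days. Pair 1 thus stood nearest to the laying pattern in both directions.

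The genes furthest apart at 300 days, with a log2 difference of at least 4 on the log2(scaled count + 1) scale, show this more clearly. The 309 that were higher in the uterus at 300 days had a median log2 difference at 120 days of 3.58 in pair 1, 0.28 in pair 2 and 0.81 in pair 3. Their median level at 120 days was 137, 34 and 59 scaled counts in uterus replicates 1 to 3, against 8, 23 and 29 in magnum replicates 1 to 3. Uterus replicate 1 was thus the highest and magnum replicate 1 the lowest of the 6. At 300 days the medians were 201 to 230 in the uterus and 2 to 4 in the magnum. Of the 309, 94 did not overlap at 120 days in that direction, or 30.4%, where 5.78% of all tested genes did so, and 15 (4.85%) were called higher, where 0.242% of all tested genes were.

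The 152 genes lower in the uterus at 300 days by as much had a median log2 difference at 120 days of -4.29 in pair 1, -0.92 in pair 2 and -1.32 in pair 3. Their median level was 13, 15.5 and 23 scaled counts in uterus replicates 1 to 3, against 396, 53.4 and 76.9 in the magnum. Together they held 0.722%, 0.331% and 0.475% of the uterus libraries, against 38.9% of magnum replicate 1 and 0.777% and 1.63% of magnum replicates 2 and 3. In the magnum at 300 days they held 61.6% to 76.1%. Magnum replicate 1 was therefore between the other magnum libraries of its age and those of the laying age in this share. At 120 days 68 of the 152 did not overlap in that direction, or 44.7%, where 7.49% of all tested genes did so, and 22 (14.5%) were called lower, where 0.376% of all tested genes were.

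**Figure D4:**
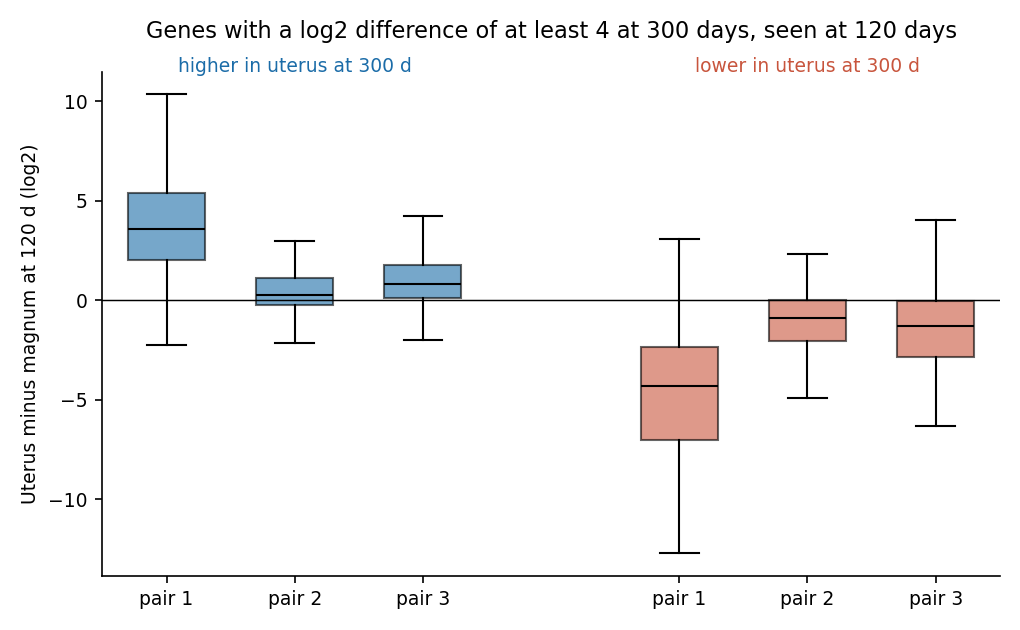
Boxes show the difference between uterus and magnum at 120 days (log2), by same-numbered pair, for the 309 genes higher (blue) and the 152 lower (red) in the uterus by a log2 difference of at least 4 at 300 days; lines mark medians, boxes the quartiles and whiskers the values within 1.5 box lengths. Pair 1 lies furthest from 0 in both sets, with medians of 3.58 and -4.29, and pairs 2 and 3 lie nearer to 0.

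Seen from the earlier age, most called genes kept their direction at 300 days, in libraries other than those compared. Of the 36 higher genes 33 were also higher on average at 300 days, and of the 56 lower genes 54 were also lower, where 63.9% of all tested genes had the same sign at both ages. In the fit of the 300-day libraries alone 28 of the 36 and 52 of the 56 were called in the same direction. Over all tested genes, 14.9% were called higher and 12.1% lower in that fit. Of the 56 lower genes 1 was called in the opposite direction, and the rest of the 92 were not called. The choice of the 92 was not fully independent of the 300-day libraries, because their spread entered the test and their values entered the filter. With a filter on the 6 libraries at 120 days, 33 higher and 55 lower genes were called, all among the 36 and 56. The called genes lost with that filter were tested only because of their values at 300 days. Their direction there is therefore no separate support. The genes at least 4-fold apart in all 3 pairs were chosen on the 120-day libraries alone, and of these 15 of 16 higher and 30 of 30 lower had the same sign at 300 days, and 12 and 26 were called there in that direction.

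Over all tested genes, the difference was higher at 300 days than at 120 days for 239 (1.61%) and lower for 150 (1.01%), or 2.61% together, by limma's interaction test. Among the called genes the size of the difference moved both ways. It was larger at 300 days for 19 of the 36 and 35 of the 56, and the median log2 differences at 300 days were 3.44 and -3.41. These genes were chosen on their differences at 120 days, and the same count was not made over all tested genes. The counts therefore do not show how differences moved with age in general. The named genes gene18927 and gene14964 had log2 differences of 7.58 ± 0.92 and 7.10 ± 0.69 at 300 days (SE, adjusted p = 0.000212 and 5.51e-05), and gene13123 and gene17377 of -9.34 ± 1.06 and -12.83 ± 1.25 (SE, adjusted p = 0.000143 and 5.51e-05, limma over 12 libraries). For none of the 4 did the change of the difference between the ages pass, with adjusted p of 0.741 for gene18927, 0.148 for gene14964, 0.199 for gene13123 and 0.114 for gene17377 by limma.

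A few differences were found at 120 days and not at 300 days, and 1 was called in the opposite direction there. One higher gene stood at 105, 1029 and 298 scaled counts in the uterus, against 1, 8 and 2 in the magnum, and at 300 days it was listed at 0 in all uterus libraries and at 0, 0 and 1 in the magnum. Another stood at 347, 400 and 367 in the uterus, against 93, 96 and 102 in the magnum, and at 300 days it stood at 63, 44 and 42 in the uterus and 49, 40 and 62 in the magnum. The uterus libraries of this second gene were close together at 120 days and overlapped the magnum at 300 days. Its change of the difference between the ages passed, at -1.94 ± 0.40 (log2, SE, adjusted p = 0.0325). Among the lower genes the 1 called in the opposite direction at 300 days stood at 0, 1 and 0 in the uterus and 61, 13 and 9 in the magnum, and at 300 days at 77, 70 and 24 in the uterus and 4, 4 and 9 in the magnum. This gene did not reach 10 in 3 libraries at 120 days. It was tested only because of its uterus values at 300 days, the same values that turn its direction. Its adjusted p at 120 days by limma was 0.0422, or 0.0770 with same-numbered libraries as blocks. Of the 36, 5 had a uterus mean at 300 days of at most 0.1 times that at 120 days and 3 of at least 10 times.

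**Figure D5:**
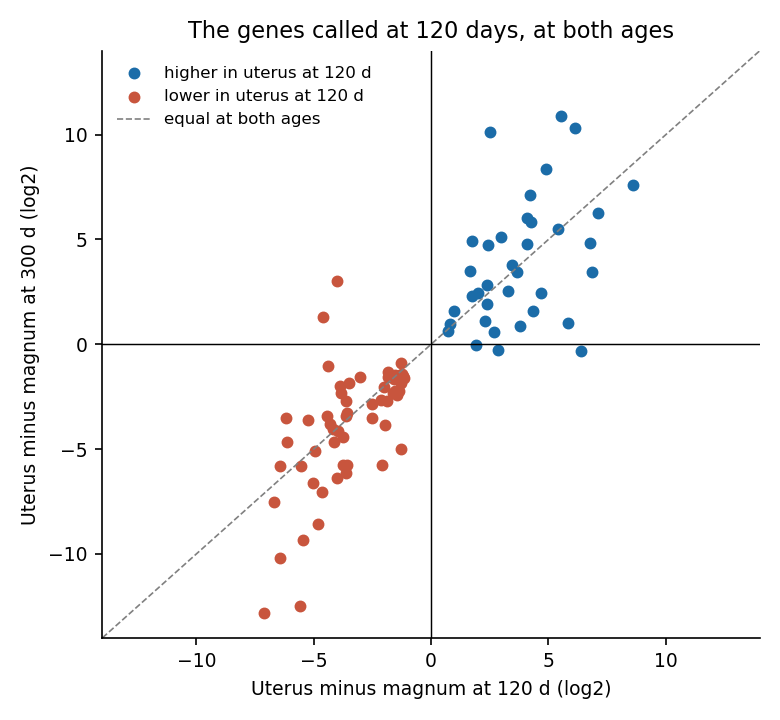
Each point is 1 of the 92 called genes, with its log2 difference between uterus and magnum at 120 days on the horizontal axis and at 300 days on the vertical axis; the dashed line marks equal differences. Of the 36 genes higher in the uterus (blue) 33 lie above 0 at 300 days, and of the 56 lower ones (red) 54 lie below 0.

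Gene length went with the direction of the difference. The tested genes were split into 3 equal classes of 4961 genes by the length the table gives. The shortest class (170 to 2492 bases) held 19 higher and 11 lower calls (0.383% and 0.222%). The longest (4951 to 42736 bases) held 6 higher and 32 lower calls (0.121% and 0.645%), where 0.242% and 0.376% of all tested genes were called. The median log2 difference was 0.15 in the shortest class and -0.12 in the longest. Libraries that did not overlap showed the same split, with 8.63% higher and 2.92% lower among the shortest genes and 3.91% higher and 12.9% lower among the longest. It held within the most abundant of 3 equal classes by level, where 10.03% of the shortest were higher without overlap and 2.35% lower, against 2.46% and 17.3% of the longest. The median of the shortest class lay above that of the longest by 0.20, 0.41 and 0.18 (log2) in pairs 1 to 3 at 120 days, and by 0.16, 0.03 and 0.06 at 300 days. The part of length in the calls was not tested.

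Of 1114 new-gene loci tested, 4 were higher (0.359%) and 8 lower (0.718%), against 32 and 48 of 13769 numbered genes (0.232% and 0.349%). By level, the least abundant class held 22 higher and 24 lower calls and the most abundant 5 and 15.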

How the data were processed

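Libraries were grouped by the segment, age and replicate number in the sample titles. The authors deposited gene values that were treated as a score, that is counts already scaled and cut to whole numbers: size factors of the 12 columns lay between 0.974 and 1.01 while their totals ran from 14499548 to 77432154. The second deposited table holds FPKM values, and a gene length column is given as other information. The tools named, per the submitters' processing notes, are TopHat2 2.0.8, Cufflinks 2.0.2, Trimmomatic 0.32, FastQC 0.11.6 and GATK 3.8. The sources used here do not give the build, annotation or strand setting, so overlapping and near-identical genes could not be judged. Depth is unknown, so no counting interval is given.

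The 14883 genes that reached 10 in 3 or more of the 12 libraries were tested with limma 3.58.1 in R 4.3.3 on log2(value + 1), two-sided, with a mean-dependent prior and 1 coefficient per group. Folds on this scale understate low genes. The test was checked on simulated data with an equal spread in all groups and no tie between same-numbered libraries. The check therefore does not cover the unequal spread of the groups or the resemblance of same-numbered libraries seen here. Nothing says that replicates are separate hens, so p-values measure only how these samples spread, and that may be technical. Same-numbered libraries were taken as pairs at 120 days because their deviations from the group means correlated at 0.361, 0.591 and 0.390 (other numbers -0.398 to 0.0381, and 0.198, 0.216 and 0.0838 at 300 days). Deviations from a mean of 3 libraries sum to 0, so positive values for the same number pull those for other numbers below 0. This pairing comes from the data, since the labels give only the numbers. Named genes had to pass, with a log2 difference of at least 1, non-overlapping libraries, a mean of at least 200 and no group listed at 0, and the 2 with the highest mean per direction were taken. Members and rules were chosen with earlier results of these data known. Python 3.11.15, NumPy 2.4.6, pandas 2.3.3, SciPy 1.17.1 and matplotlib 3.10.9 were used.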

Additional observations from a re-analysis of the deposited data

Results flagged for a closer look

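For 12 of the 92 genes called at 120 days the difference between uterus and magnum changed with age by limma's test of the interaction (adjusted p below 0.05), where 2.61% of all tested genes did so; the 92 were chosen on one side of that change. It moved further from 0 at 300 days for 4 higher and 3 lower genes and toward 0 or past it for 3 and 2, and for 4 of the 12 a group had no library above 0.

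One of the lower genes stood at 2286, 3754 and 2233 scaled counts in the uterus, against 6556, 6512 and 6307 in the magnum at 120 days, and at 300 days at 523, 431 and 435 in the uterus and 13117, 12720 and 20063 in the magnum (change of the log2 difference -3.75 ± 0.32, SE, adjusted p = 0.000482). A higher gene stood at 4353, 2458 and 2986 in the uterus, against 911, 1394 and 792 in the magnum at 120 days, and at 300 days at 7220, 8057 and 8274 in the uterus and 797, 731 and 562 in the magnum (change 1.84 ± 0.36, SE, adjusted p = 0.0240).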

How the results depend on the processing

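The counts of 36 higher and 56 lower genes became 2 and 1 with the 6 libraries at 120 days alone, 2 and 2 with those libraries and the replicate block, 21 and 32 with group variance weights and 14 and 29 without pair 1. With FPKM values and a pseudocount of 1, 27 were higher and 31 lower, of which 17 and 24 were among the 36 and 56. Library totals, upper quartile scaling, FPKM with a pseudocount of 0.1, a pseudocount of 10, no filter and a filter on the 6 libraries gave 32 to 45 higher and 45 to 64 lower. Leaving out 1 library gave 15 to 65 higher and 17 to 69 lower. With the block over 12 libraries, 35 and 61 were called, and it changed the calls of gene14964 and gene13123 but of neither other named gene. In 22 of 24 alternatives gene18927 passed, the exceptions being the fits of 6 libraries (adjusted p of 0.121, and of 0.156 with the block), as did gene14964 in 19, gene17377 in 11 and gene13123 in 6. Their adjusted p ranged from 9.16e-05 to 0.156 for gene18927, 0.0088 to 0.282 for gene14964, 5.12e-06 to 0.338 for gene17377 and 0.0150 to 0.378 for gene13123, and the direction held in all 24 for each.

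Among the genes called with the 6 libraries alone, 2 of 2 higher and 1 of 1 lower had the same sign at 300 days. With the block added these counts were 1 of 2 and 2 of 2, with group weights 19 of 21 and 31 of 32, and without pair 1 13 of 14 and 28 of 29. In the same order of settings, calls among new-gene loci were 1, 0, 6 and 5, among the shortest length class 2, 1, 17 and 14, among the longest class 1, 2, 23 and 19, and among the most abundant 0, 0, 10 and 7. Division by library totals moved the median of all genes by 0.22 (log2). Genes without overlap then made up 2.55% in place of 7.49% for lower, and 7.20% in place of 5.78% for higher. With the same division the 1808 genes lower at 300 days became another set with a median of -1.26 at 120 days. The 300-day genes had medians of 0.32 (higher) and -0.35 (lower) over all pairs at 120 days, 0.12 and -0.17 without pair 1, and 0.22 to 0.52 and -0.44 to -0.22 without 1 library at 120 days. The difference in the share of the 10 most abundant genes ran from -15.7 to 1.03 percentage points. Fewer samples or another estimate of the spread enter the first 4 settings, and otherwise the cause of these moves was not tested. Unknown depth limits all genes near 0.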

Other observations

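The identifiers of the called genes are numbered, and the files do not say what the numbers follow. Of the 80 called numbered genes (32 higher and 48 lower), 14 have another called gene within 10 numbers, in 6 runs, of which 5 hold lower genes only. How many such runs any 80 of the tested numbered genes would give was not worked out. The counts therefore do not show that called genes lie together. The remaining run has 4 genes in both directions and was picked after its values were seen. Its first 2 genes stood at 49, 181 and 134, and at 84, 220 and 100 scaled counts in the uterus, against 778, 3362 and 2751, and 1653, 1885 and 1451 in the magnum (log2 differences of -4.17 ± 0.59 and -3.74 ± 0.44, SE, limma adjusted p = 0.00976 and 0.00338). Its last 2 stood at 122, 433 and 142, and at 49, 359 and 73 in the uterus, against 0, 2 and 0, and 0, 0 and 0 in the magnum (adjusted p = 0.000651 and 0.00338). The 4 genes kept their direction at 300 days, at 28 to 123 in the uterus against 542 to 4242 in the magnum for the first 2, and at 12 to 94 in the uterus against 0 in the magnum for the last 2. No test of such runs was made.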
